A study of Arabidopsis thaliana with 30 samples.

Results

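The 10 genes described here form the core of the circadian clock of Arabidopsis thaliana, chosen by gene code from the 33199 features of the expression table. They are LHY (AT1G01060), CCA1 (AT2G46830), PRR9 (AT2G46790), PRR7 (AT5G02810), PRR5 (AT5G24470), TOC1 (AT5G61380), GI (AT1G22770), ELF3 (AT2G25930), ELF4 (AT2G40080) and LUX (AT3G46640). All 10 were detected and passed the filter on low values in each comparison. Their levels were compared between roots and shoots, between seedlings given a cytokinin and mock-treated seedlings, and between a mutant of cytokinin signalling and the wild type.

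Messenger RNA was sequenced from ahp4 seedlings (allele ahp4-2 in the series' design text), which carry a mutation in a histidine phosphotransfer protein of the cytokinin pathway, and from the wild type Columbia (Col, Col-0). Seedlings were 7 days old and stood for 2 h in liquid half-strength Murashige and Skoog medium. The BA groups had 100 nM 6-benzylaminopurine (BA), a synthetic cytokinin, in 0.1% DMSO, and the mock groups had 0.1% DMSO alone. Seedlings were separated at the hypocotyl into pools of roots and of shoots, and the labels do not say whether this came before or after the treatment. The groups were ahp4 root BA, ahp4 root mock, Col root BA, Col root mock, Col shoot BA and Col shoot mock with 4 libraries each, and ahp4 shoot BA and ahp4 shoot mock with 3 libraries each. All groups were grown under cycles of 16 h light and 8 h dark. The labels give neither the hour of sampling nor the time between the collection of one library and the next. Whether libraries within a group stem from separate cultures is not stated either; the p-values below therefore reflect variation among these libraries, part or all of which may be technical.

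The plant clock is a loop of repressors that follow each other through the day. LHY and CCA1, a pair of closely related MYB transcription factors, peak near dawn and repress genes of the evening; the pseudo-response regulators PRR9, PRR7, PRR5 and TOC1 follow in turn and repress LHY and CCA1. ELF3, ELF4 and LUX form the evening complex, which represses genes such as PRR9 and PRR7 at night, and GI is a protein of the late day that acts with the photoreceptor ZTL on the stability of TOC1. Because these transcripts cycle, the level of each depends on the hour at which tissue is taken.

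The promoters of LHY and CCA1 and of the later genes PRR5, TOC1 and LUX are shown. PRR5, TOC1 and LUX are the clock genes with an exact evening element in the 300 bases before the annotated start. GI and ELF4, which count as dusk genes in the index below, have no exact match in that window and are not shown. Sequence farther upstream or within the genes was not searched. Each promoter is the 300 bases before the annotated start, read on the strand of the gene from the RefSeq copy of the TAIR10.1 genome. They lie at chr1:37872-38171 for LHY (minus strand), chr2:19245291-19245590 for CCA1 (plus), chr5:8358547-8358846 for PRR5 (minus), chr5:24674663-24674962 for TOC1 (plus) and chr3:17182742-17183041 for LUX (plus). Capitals mark the evening element (AAAATATCT, or AGATATTTT on the other strand) and the CCA1-binding site (AAAAATCT, or AGATTTTT), both bound by CCA1 and LHY, and the G-box (CACGTG), bound by light-signalling factors.
LHY: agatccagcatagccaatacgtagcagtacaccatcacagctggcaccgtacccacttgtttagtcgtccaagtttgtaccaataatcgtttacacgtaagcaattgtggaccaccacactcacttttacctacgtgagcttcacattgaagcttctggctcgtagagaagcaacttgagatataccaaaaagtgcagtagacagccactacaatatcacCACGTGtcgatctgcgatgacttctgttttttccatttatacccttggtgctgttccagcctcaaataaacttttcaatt
CCA1: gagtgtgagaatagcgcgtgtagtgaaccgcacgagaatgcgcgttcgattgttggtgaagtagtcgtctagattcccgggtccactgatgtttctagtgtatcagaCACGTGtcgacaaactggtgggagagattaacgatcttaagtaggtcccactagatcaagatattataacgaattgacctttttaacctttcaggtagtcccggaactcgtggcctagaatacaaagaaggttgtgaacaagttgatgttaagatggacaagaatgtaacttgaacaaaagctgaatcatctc
PRR5: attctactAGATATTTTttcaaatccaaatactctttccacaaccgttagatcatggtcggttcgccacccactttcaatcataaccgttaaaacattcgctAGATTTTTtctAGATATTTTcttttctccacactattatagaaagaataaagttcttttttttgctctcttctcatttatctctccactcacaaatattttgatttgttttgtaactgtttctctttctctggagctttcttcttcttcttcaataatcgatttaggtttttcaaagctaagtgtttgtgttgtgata
TOC1: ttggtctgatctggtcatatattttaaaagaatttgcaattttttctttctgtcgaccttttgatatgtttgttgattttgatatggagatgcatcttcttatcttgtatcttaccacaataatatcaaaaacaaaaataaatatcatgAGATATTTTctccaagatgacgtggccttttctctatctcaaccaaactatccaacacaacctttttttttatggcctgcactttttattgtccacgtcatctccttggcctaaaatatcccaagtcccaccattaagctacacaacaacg
LUX: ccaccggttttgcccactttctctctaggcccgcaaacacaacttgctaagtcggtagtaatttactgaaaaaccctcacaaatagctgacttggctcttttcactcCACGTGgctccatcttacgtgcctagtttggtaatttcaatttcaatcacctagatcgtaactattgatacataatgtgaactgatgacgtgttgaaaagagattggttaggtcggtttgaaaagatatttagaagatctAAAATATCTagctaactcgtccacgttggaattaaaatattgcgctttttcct

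The evening element occurred on either strand in 2.79% of 27443 protein-coding promoters of this length, and among the 10 clock genes in PRR5, which had 2 copies, TOC1 and LUX. The CCA1-binding site occurred in 7.94% of promoters and among the clock genes in PRR5. The G-box occurred in 7.09% of promoters and in those of LHY, CCA1, PRR9, PRR7 and LUX. A motif bound by LUX (GATACG or GATTCG) occurred in 14.3% of promoters and in those of PRR9, ELF3 and ELF4, and the GI window held none of these letters. The motifs do not overlap each other in these windows. A match of letters is a description and does not show binding in these seedlings.

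Read totals rebuilt from the deposited values ran from 9205127 to 13779004 per library. AHP4 itself averaged 0.378 FPKM (fragments scaled by gene length and by library size factors) in ahp4 mock roots and 1.01 FPKM in Col mock roots. In mock shoots it averaged 1.51 FPKM in ahp4 and 5.26 FPKM in Col. ARR5, a gene that cytokinin induces directly, stood at 140.0 FPKM or more in all root BA libraries and at 36.5 FPKM or less in all root mock libraries. In the ahp4 root mock libraries ARR5 ran from 13.7 to 36.5 FPKM and AHP4 from 0.347 to 0.435 FPKM. AHP4 ran from 0.539 to 1.71 FPKM in Col mock roots and from 0 to 0.885 FPKM in Col BA roots. One library, ahp4 root mock replicate 1, has a title that says ahp4 and mock and characteristics that say Col-0 and BA. Its ARR5 level lay with the mock libraries, and AHP4 was low in all these roots. Its title decided its group here. The organ, BA and genotype results of the 10 clock genes were recomputed without it. So were the BA results of the further clock, output, light input and marker genes, and the index mean of its group. Results without it are printed where a call changes. The 9 shoot markers summed to 76.7 to 398 FPKM in roots and to 49508 FPKM or more in shoots, and 10 root markers summed to 452 FPKM or more in roots and to 10.9 FPKM or less in shoots, so the labelled organs carried their own markers.

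Libraries of one group differed in the clock genes, and in shoots those numbered 1 were the extreme of their group for LHY and PRR5. LHY, in ahp4 shoots, had 20.3, 6.17 and 4.30 FPKM with BA, against 18.9, 5.02 and 3.10 FPKM with mock, in replicates 1 to 3. In Col shoots LHY had 25.0, 9.43, 6.65 and 4.24 FPKM with BA, against 19.5, 7.23, 7.39 and 3.42 FPKM with mock, in replicates 1 to 4. In each shoot group the library numbered 1 held more than any other, and BA and mock libraries overlapped. PRR5, which peaks later in the day, had 8.81, 26.3 and 45.1 FPKM in ahp4 shoots with BA, against 11.4, 35.8 and 51.6 FPKM with mock. In Col shoots PRR5 had 4.14, 22.5, 32.5 and 47.1 FPKM with BA, against 17.9, 19.1, 29.5 and 51.0 FPKM with mock. Here the library numbered 1 was the lowest of each group.

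**Figure D1:**
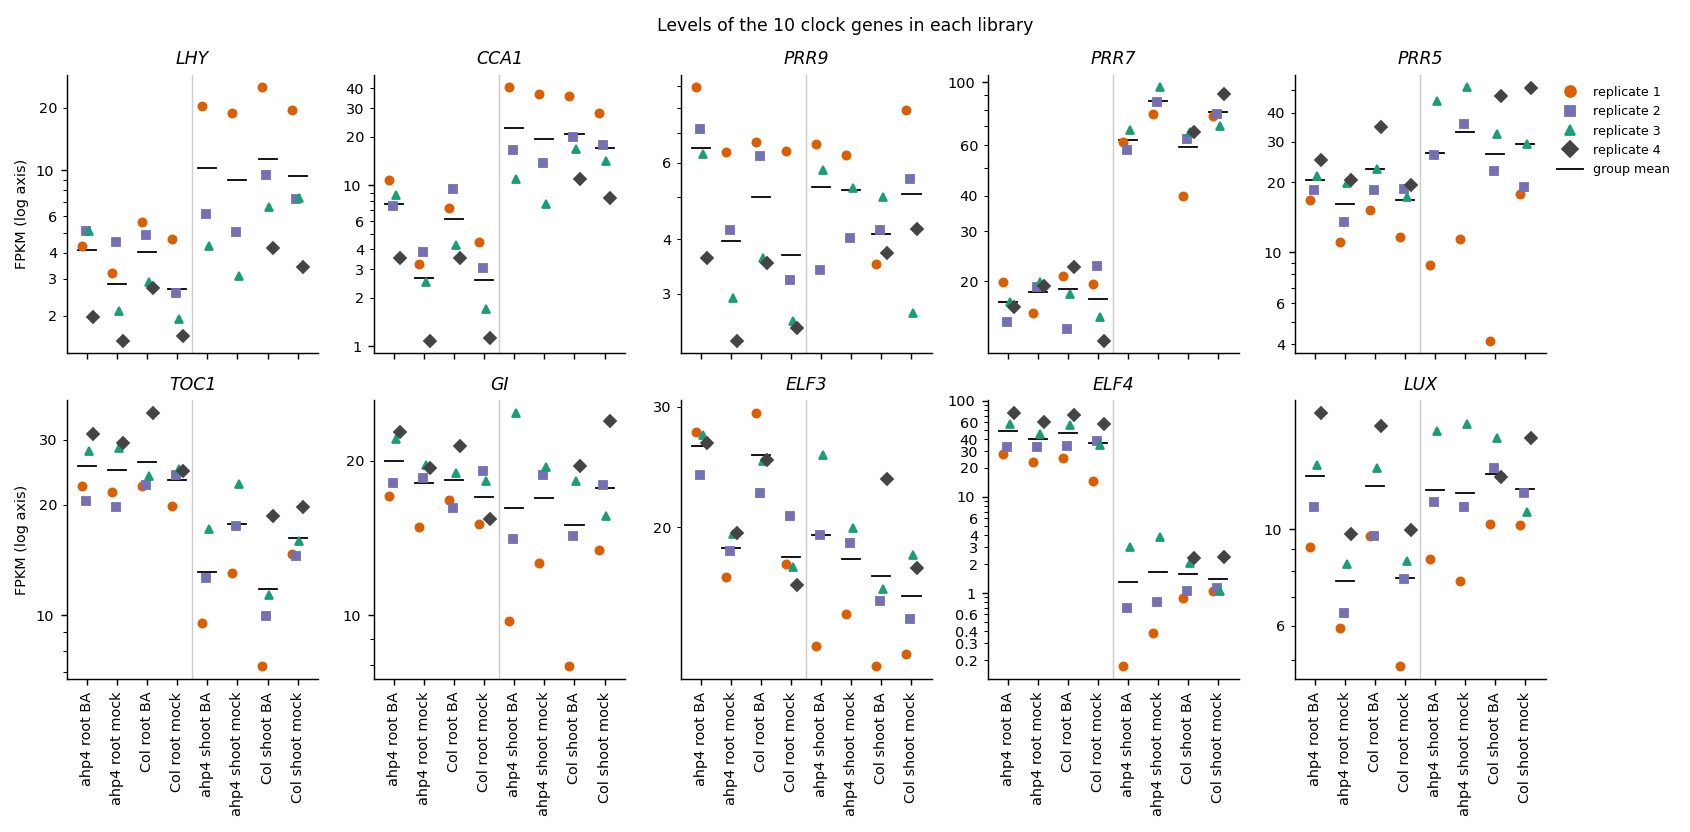
Level of each clock gene in each library, in FPKM on a log axis, with the group mean as a bar and replicate numbers as symbols. In shoots the replicate 1 libraries lie highest for LHY and CCA1 and lowest for PRR5, GI and ELF3, and ELF4 lies at 14.6 to 74.6 FPKM in roots and at 0.172 to 3.83 FPKM in shoots.

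To place libraries on one scale, an index was taken as the mean log2(FPKM + 1) of LHY and CCA1 minus that of TOC1, GI, ELF4 and LUX, so that a higher value means relatively more of the transcripts that peak near dawn. The index ran from 1.53 to 2.32 in the replicate 1 libraries of shoots and from -1.28 to 0.81 in all other shoot libraries, so these sets did not overlap. In roots it ran from -1.89 to -1.24 in libraries numbered 1 and from -2.42 to -1.33 in those numbered 2, which overlapped. It ran from -2.85 to -1.85 in root libraries numbered 3 and from -3.47 to -2.97 in those numbered 4. The library numbered 1 had the highest index in 7 of 8 groups, ahp4 root mock being the exception with its replicate 2, and the library with the last number had the lowest index in 8 of 8 groups. In the labels the numbers only name libraries and are tied to no hour, day or batch. Whether libraries were taken at different clock times was not tested.

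**Figure D2:**
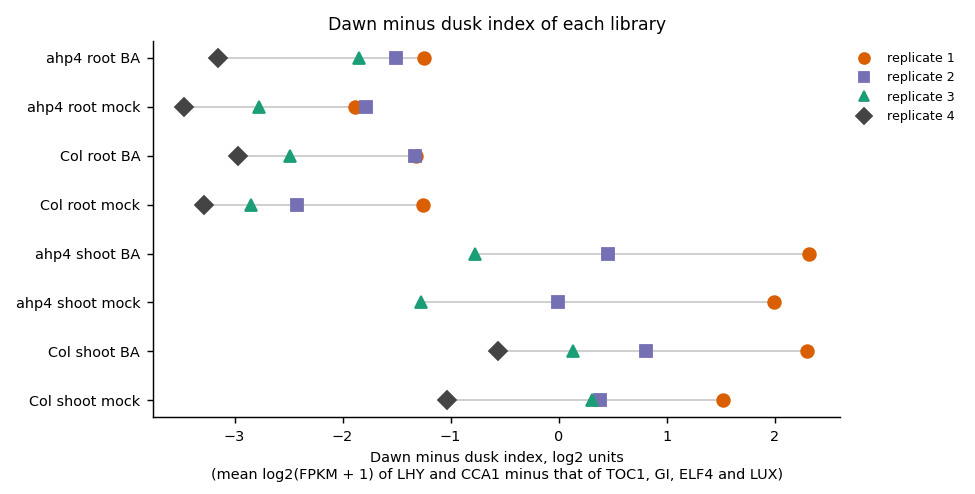
Dawn minus dusk index (log2 units) of each library, 1 line per group, symbols giving the replicate number. Root libraries lie mostly to the left of shoot libraries. ELF4, a term of the index, is itself far higher in roots, and whether the organs differed in phase was not tested. The means of BA and mock, or of ahp4 and Col, lie closer together than the libraries of a group.

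Group means of the index, with the library of conflicting labels in its group, were -1.94 ± 0.85 in ahp4 root BA, -2.48 ± 0.80 in ahp4 root mock, -2.03 ± 0.83 in Col root BA and -2.45 ± 0.87 in Col root mock (SD, n = 4 each). In shoots they were 0.67 ± 1.56 in ahp4 BA and 0.24 ± 1.65 in ahp4 mock (SD, n = 3 each), and 0.67 ± 1.22 in Col BA and 0.29 ± 1.05 in Col mock (SD, n = 4 each). Differences between BA and mock, and between ahp4 and Col, were smaller than these SDs. Without the library of conflicting labels the mean in ahp4 root mock was -2.68 ± 0.84 (SD, n = 3). ELF4, a term of the index, was higher in roots than in shoots by 3.84 (Col mock) to 4.51 (ahp4 BA) log2 units, on few reads in shoots. The index gap between organs thus includes that of ELF4, and whether the organs differed in phase was not tested. A score over chosen genes carries no test here.

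Of the 4 clock genes left out of the index, PRR5 varied most closely with it. Across the 30 libraries the deviation of PRR5 from its group mean had a Pearson r of -0.91 with the deviation of the index, with -0.89 over the 16 root and -0.95 over the 14 shoot libraries. PRR9, the first PRR of the morning, had r = 0.58, made up of 0.95 in roots and 0.31 in shoots. In the 10 shoot libraries without replicate 1 the value for PRR9 was -0.30. ELF3 had r = -0.69, made up of -0.05 in roots and -0.89 in shoots. PRR7 had r = -0.33, with 0.07 in roots and -0.72 in shoots. These are descriptions over libraries that share groups and preparation, and the 6 genes of the index are correlated with it by construction.

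**Figure D3:**
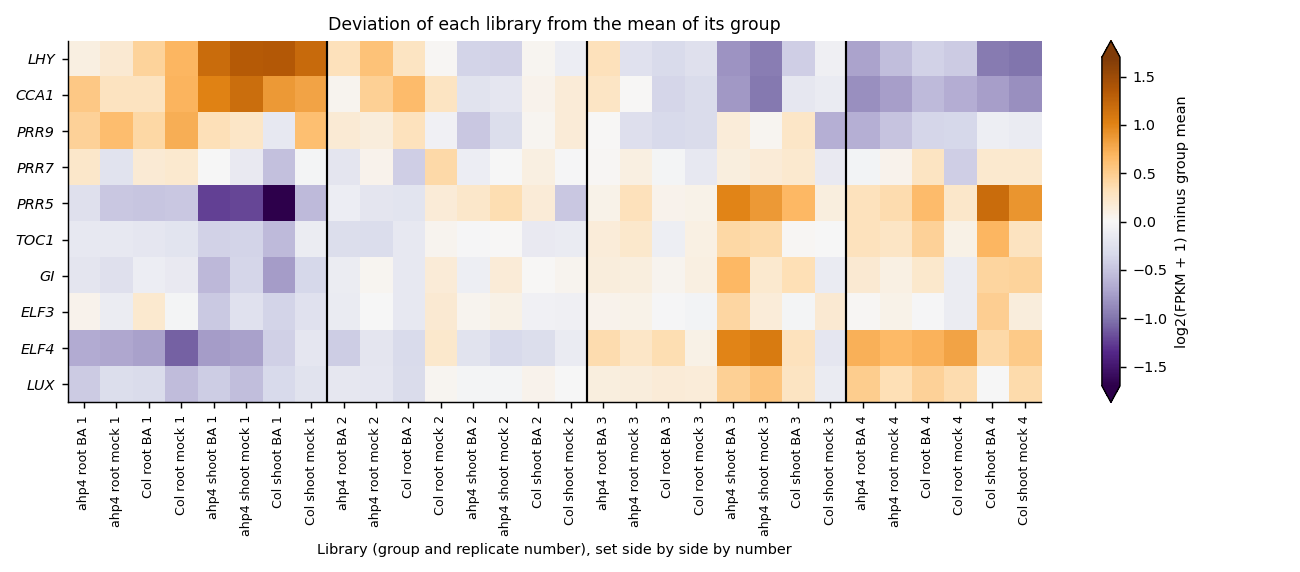
Deviation of log2(FPKM + 1) of each clock gene (down the page) from its group mean in each of the 30 libraries, set side by side by replicate number. Libraries numbered 1 are mostly orange (above the mean) for LHY and CCA1 and purple (below it) for PRR5, ELF4 and LUX, and those numbered 4 mostly show the opposite.

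Gene by gene, PRR5 and ELF4 were lowest in the library numbered 1 and highest in that with the last number in 8 of 8 groups. ELF4 in shoots rests on 1 to 20 reads per library, so its order there is uncertain. The share of all genes with such an order is not given here. LUX was lowest in the library numbered 1 in 8 groups and highest in the last in 7. LHY and CCA1 were each highest in the library numbered 1 in 6 groups and lowest in the last in 8. PRR7 was highest in the library numbered 1 in 1 group and lowest in it in 3 groups.

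Other genes whose deviations were most like the index were named by rank, which says nothing of shared control. Among 15215 genes with a mean of 1 FPKM or more in each group, the highest r over 30 libraries were those of LNK3 (AT3G12320, 0.94), RVE8 (0.93), RPT2 (0.90), AT5G02830 (0.90) and LNK2 (AT3G54500, 0.90). RVE8 is a MYB factor related to LHY that activates evening genes, the LNK proteins are its coactivators, and RPT2 acts in phototropism. The lowest were AT1G56300 (-0.96), FKF1 (-0.96), a blue-light receptor of the flowering pathway, RIBA2 (-0.94), GRP7 (-0.94), an RNA-binding clock output also called CCR2, and AT4G33980 (-0.93). An r above 0.8 was found for 34 genes and one below -0.8 for 72. LNK2, LNK3 and FKF1 overlap other genes, and since strand use is unknown here, their levels are uncertain.

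Roots and shoots held different amounts of the clock transcripts, and the genes differed in direction. A difference is the log2(FPKM + 1) of roots minus that of shoots with its standard error, from a limma fit over all genes, and was called at a Benjamini-Hochberg adjusted p under 0.05. In Col mock, 2 clock genes were higher in roots (ELF4, TOC1) and 4 lower (CCA1, PRR7, LHY, LUX), 6 of 10 where 71.3% of all genes tested were called (38.3% higher, 32.9% lower). In Col BA, 3 were higher (ELF4, TOC1, ELF3) and 2 lower (PRR7, CCA1), against 71.6% of all genes (38.4% higher, 33.1% lower). In ahp4 mock, ELF4 was higher and CCA1 and PRR7 lower, 3 of 10 against 70.0% (37.9% higher, 32.1% lower). In ahp4 BA, ELF4, TOC1 and ELF3 were higher and PRR7 and CCA1 lower, 5 of 10 against 70.5% (38.0% higher, 32.5% lower). The clock genes were called no more often than genes in general. In bulk samples, fewer cells of a type and less RNA per cell cannot be told apart.

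**Figure D4:**
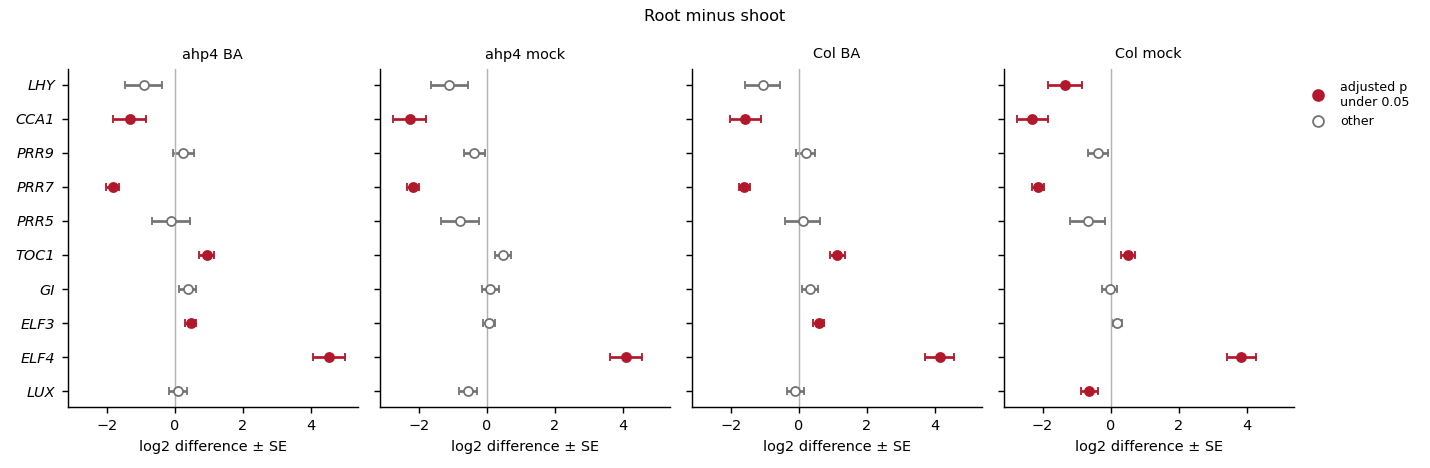
Root minus shoot difference in log2(FPKM + 1) with its standard error for each clock gene, by genotype and treatment, filled where the adjusted p was under 0.05. ELF4 lies between 3.84 and 4.51 in the 4 panels, and CCA1 and PRR7 lie below 0 in all of them.

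The largest organ difference was that of ELF4, a small protein of the evening complex. In ahp4 it had 27.8, 33.0, 57.8 and 74.6 FPKM in BA roots, against 0.172, 0.699 and 3.01 FPKM in BA shoots. In Col it had 14.6, 37.9, 34.6 and 57.5 FPKM in mock roots, against 1.05, 1.14, 1.06 and 2.38 FPKM in mock shoots. No root library overlapped a shoot library, and the shoot values rest on 1 to 20 reads per library. The root minus shoot difference of ELF4 was 4.51 ± 0.47 in ahp4 BA, 4.09 ± 0.47 in ahp4 mock, 4.14 ± 0.43 in Col BA and 3.84 ± 0.43 in Col mock (limma adjusted p from 1.71e-09 to 1.15e-08). The other members of the complex had smaller differences. ELF3, the scaffold of the complex, ranged from 16.5 to 29.4 FPKM in roots and from 12.5 to 25.5 FPKM in shoots. LUX, its DNA-binding subunit, was 0.63 ± 0.25 lower in Col roots than in Col shoots with mock (log2 -0.63, limma adjusted p = 0.0244), and that call was lost without Col root mock replicate 1 (adjusted p = 0.117) or Col shoot mock replicate 4 (0.0910).

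PRR7, the regulator of the mid-morning, was lower in roots in all 4 settings. It had 19.9, 14.4, 17.0 and 16.2 FPKM in ahp4 BA roots, against 61.9, 57.6 and 68.0 FPKM in ahp4 BA shoots. In Col it had 19.6, 22.7, 15.0 and 12.4 FPKM in mock roots, against 76.1, 77.3, 70.3 and 90.7 FPKM in mock shoots. Root and shoot libraries did not overlap in any of the 4 settings. The root minus shoot difference of PRR7 was -1.84 ± 0.18 in ahp4 BA, -2.17 ± 0.18 in ahp4 mock, -1.60 ± 0.17 in Col BA and -2.14 ± 0.17 in Col mock (limma adjusted p from 4.76e-12 to 1.85e-09). Its relatives PRR9 and PRR5 were not called in any of the 4 settings, with differences between -0.38 and 0.24 for PRR9 and between -0.79 and 0.12 for PRR5.

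CCA1, with LHY the repressor of the morning, had 10.8, 7.42, 8.75 and 3.54 FPKM in ahp4 BA roots, against 40.7, 16.5 and 10.9 FPKM in ahp4 BA shoots. In Col mock it had 4.44, 3.06, 1.71 and 1.12 FPKM in roots, against 28.1, 17.7, 14.2 and 8.29 FPKM in shoots. Root libraries were below shoot libraries in both settings, narrowly with BA in ahp4. The root minus shoot difference of CCA1 was -1.33 ± 0.49 in ahp4 BA (limma adjusted p = 0.0177), -2.27 ± 0.49 in ahp4 mock (0.000187), -1.58 ± 0.46 in Col BA (0.00313) and -2.31 ± 0.46 in Col mock (5.86e-05). The call in ahp4 BA was lost without ahp4 root BA replicate 4 (0.0710) or ahp4 shoot BA replicate 1 (0.170). LHY differed by -0.92 ± 0.54 in ahp4 BA, -1.11 ± 0.54 in ahp4 mock, -1.07 ± 0.50 in Col BA and -1.34 ± 0.50 in Col mock. Only the last of these was called (limma adjusted p = 0.0196), and it was lost without Col root mock replicate 4 (0.0574) or Col shoot mock replicate 1 (0.106).

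TOC1, the evening repressor of CCA1, was called higher in roots in 3 of 4 settings. In ahp4 BA it had 22.4, 20.5, 28.0 and 31.2 FPKM in roots, against 9.51, 12.6 and 17.2 FPKM in shoots, which did not overlap. In Col BA it had 22.4, 22.7, 23.9 and 35.5 FPKM in roots, against 7.25, 9.92, 11.4 and 18.6 FPKM in shoots, which did not overlap either. The root minus shoot difference of TOC1 was 0.93 ± 0.23 in ahp4 BA (limma adjusted p = 0.000859), 0.48 ± 0.23 in ahp4 mock (0.0692), 1.13 ± 0.22 in Col BA (3.55e-05) and 0.51 ± 0.22 in Col mock (0.0361). In Col mock the call was lost without any one of 6 libraries, replicates 2, 3 and 4 of Col root mock and 1, 2 and 3 of Col shoot mock (0.0595 to 0.0827). ELF3 was called in the BA settings, at 0.46 ± 0.17 in ahp4 (0.0172) and 0.59 ± 0.16 in Col (0.00147), and not in mock, at 0.06 ± 0.17 in ahp4 and 0.19 ± 0.16 in Col. The ahp4 call was lost without ahp4 shoot BA replicate 1 (0.237). GI lay between -0.03 and 0.37 and was not called.

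The scaling bears on these directions. The deposited scale puts the median of all genes at 0.06 to 0.07 in roots minus shoots, and scaling to a common FPKM sum moves it to 0.46 in ahp4 BA, 0.53 in ahp4 mock, 0.55 in Col BA and 0.59 in Col mock. Relative to that median, ELF4 stood at 3.71 and CCA1 at -2.38 in Col mock under the common sum, with PRR7 at -2.13 and TOC1 at 0.51. GI was at -0.03 relative to the median there, while its own difference became 0.55. Under the common sum the calls of LHY (-0.84, limma adjusted p = 0.117) and LUX (-0.07, 0.792) in Col mock and of CCA1 in ahp4 BA (-0.89, 0.105) were lost. The split of called clock genes became 4 higher and 1 lower in ahp4 BA, 4 and 2 in ahp4 mock, 5 and 2 in Col BA and 4 and 2 in Col mock. With quantile normalization it was 2 higher and 3 lower in ahp4 mock and 3 and 3 in Col BA. The shares of all genes called under these scalings are not given here. These splits are therefore not read as a result about the clock genes.

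Without all libraries numbered 1, the count of clock genes called between organs was 4 in ahp4 BA, 5 in ahp4 mock, 5 in Col BA and 6 in Col mock. The share of all genes called without these libraries is not given here. ELF3 was no longer called in ahp4 BA (0.21, limma adjusted p = 0.238), and PRR5 (-1.24, 0.00383) and LUX (-0.73, 0.0136) were called lower in ahp4 mock roots. Without the library whose labels conflict, 3 clock genes were called in ahp4 mock.

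After 2 h of BA, 3 clock genes were called in ahp4 roots, 1 in Col roots and none in shoots. This fit had no term for the replicate number, and its counts do not set the clock genes apart from genes in general. With such a term more clock genes were called in roots, and TOC1 in Col shoots, as given at the end. In ahp4 roots 3 of 10 clock genes rose (ELF3, CCA1, LUX) and none fell, where 20.7% of all genes tested were called (11.4% higher, 9.26% lower). In Col roots ELF3 rose, 1 of 10 where 20.5% of all genes were called (11.8% higher, 8.75% lower). The median change of the 10 was 0.39 in ahp4 roots, beside -0.011 over all genes tested, and 0.39 in Col roots, beside -0.0035. In shoots 0 of 10 were called in ahp4 (3.92% of all genes) and 0 of 10 in Col (8.15%), with 1 clock gene, PRR7, at an unadjusted p under 0.05 in each.

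**Figure D5:**
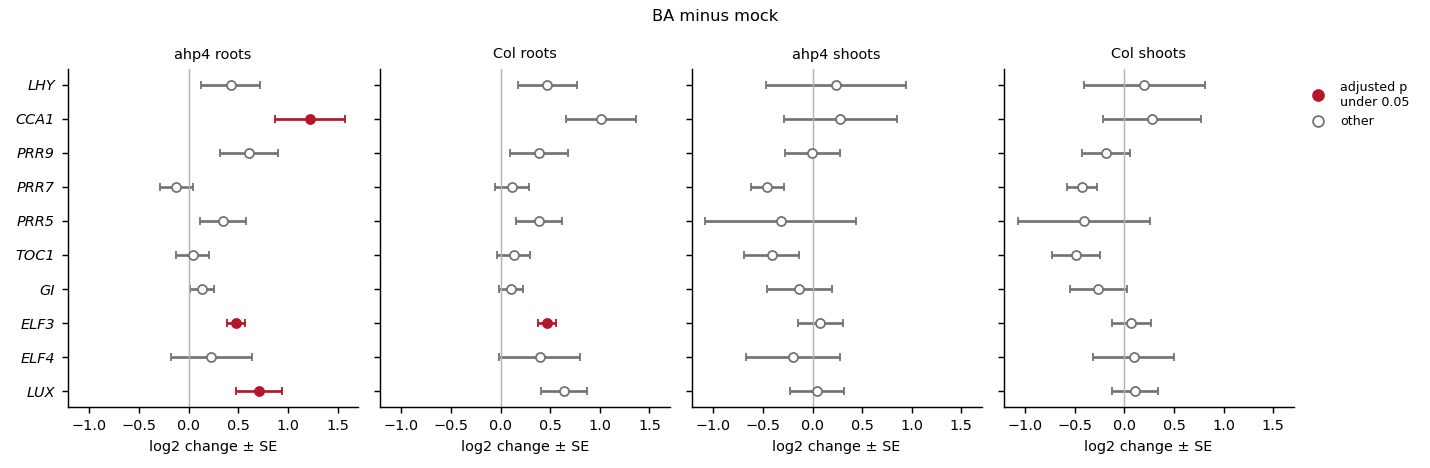
BA minus mock change in log2(FPKM + 1) with its standard error for each clock gene, by genotype and organ, filled where the adjusted p was under 0.05. In roots ELF3 is filled in both genotypes and CCA1 and LUX in ahp4, and in shoots none is.

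ELF3 carried the most even change. In ahp4 roots it had 27.5, 23.8, 27.3 and 26.6 FPKM with BA, against 16.9, 18.5, 19.6 and 19.7 FPKM with mock. In Col roots it had 29.4, 22.5, 25.0 and 25.0 FPKM with BA, against 17.7, 20.8, 17.5 and 16.5 FPKM with mock. Each BA library was above each mock library of its genotype, a separation that 23.4% of genes showed in ahp4 roots and 23.2% in Col roots, and which no other clock gene showed there. ELF3 rose by 0.47 ± 0.09 in ahp4 roots (limma adjusted p = 0.00132) and by 0.47 ± 0.09 in Col roots (0.00151), 1.39-fold and 1.38-fold. The change stayed called under each alternative, with adjusted p from 0.00139 to 0.0151 in ahp4 and from 0.000829 to 0.0183 in Col. ELF3 shares 24 bases with the neighbouring gene ALPHA-VPE, at 3.36 to 5.90 FPKM in roots, and 183 bases with an antisense RNA listed at 0.

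CCA1 had 10.8, 7.42, 8.75 and 3.54 FPKM in ahp4 roots with BA, against 3.25, 3.84, 2.51 and 1.08 FPKM with mock. In Col roots it had 7.26, 9.51, 4.26 and 3.56 FPKM with BA, against 4.44, 3.06, 1.71 and 1.12 FPKM with mock. BA and mock libraries overlapped in both genotypes, narrowly in ahp4, where the lowest BA library lay below the highest mock library. CCA1 rose by 1.22 ± 0.35 in ahp4 roots (2.33-fold, limma adjusted p = 0.0206), and its change in Col roots was 1.01 ± 0.35 (2.01-fold, adjusted p = 0.0524). The call in ahp4 was lost without ahp4 root BA replicate 1 (0.0659) or 3 (0.0571), without ahp4 root mock replicate 4 (0.0772) and without all libraries numbered 1 (0.0641). It held without the library whose labels conflict (1.31, 0.0288).

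LUX had 9.11, 11.3, 14.1 and 18.5 FPKM in ahp4 roots with BA, against 5.93, 6.42, 8.32 and 9.75 FPKM with mock. In Col roots it had 9.63, 9.67, 13.9 and 17.3 FPKM with BA, against 4.84, 7.70, 8.47 and 9.98 FPKM with mock. The groups overlapped in the lowest BA and highest mock libraries of each genotype. LUX rose by 0.71 ± 0.23 in ahp4 roots (1.63-fold, limma adjusted p = 0.0384), with a change of 0.64 ± 0.23 in Col roots (1.55-fold, 0.0611). The call in ahp4 was lost without the library whose labels conflict (0.61, 0.109), without replicate 2 (0.0810) or 3 (0.0565) of ahp4 root mock, and without replicate 3 (0.0896) or 4 (0.119) of ahp4 root BA. It was also lost with no filter on low values (0.0631). LUX shares 1507 of its 3918 bases with AT3G46650, which stood at 0.867 to 2.45 FPKM in ahp4 BA roots, 0.917 to 1.21 in ahp4 mock roots, 0.506 to 1.85 in Col BA roots and 0.174 to 0.808 in Col mock roots, so the LUX values are uncertain.

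The other 7 clock genes did not pass this test in roots, which carries no term for the replicate number. Changes of PRR9 were 0.61 ± 0.29 in ahp4 and 0.39 ± 0.29 in Col, those of LHY 0.43 ± 0.30 in ahp4 and 0.47 ± 0.30 in Col, and those of PRR5 0.35 ± 0.23 in ahp4 and 0.38 ± 0.23 in Col. ELF4 changed by 0.23 ± 0.41 in ahp4 and 0.40 ± 0.41 in Col. TOC1, GI and PRR7 lay between -0.12 and 0.14.

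In shoots PRR7 came closest to a call. It had 61.9, 57.6 and 68.0 FPKM in ahp4 shoots with BA, against 77.2, 85.4 and 96.0 FPKM with mock. In Col shoots it had 39.9, 63.0, 67.0 and 67.0 FPKM with BA, against 76.1, 77.3, 70.3 and 90.7 FPKM with mock. BA libraries lay below mock libraries in both genotypes, a separation found for 24.2% of genes in ahp4 shoots and 14.6% in Col shoots in either direction. The change was -0.46 ± 0.17 in ahp4 (0.729 of the mock level, limma adjusted p = 0.167) and -0.43 ± 0.15 in Col (0.743 of the mock level, 0.0913). Without the libraries numbered 1 it was -0.53 in ahp4 (0.0644) and -0.26 in Col (0.224). TOC1 changed by -0.41 ± 0.28 in ahp4 shoots and -0.49 ± 0.24 in Col shoots, not called. For LHY and CCA1 the intervals in shoots were wide in this fit without a term for the replicate number. CCA1 ran from -0.94 to 1.50 in ahp4 and from -0.78 to 1.33 in Col (95% limits, log2). Between libraries of the same number, CCA1 was higher with BA by 0.13 to 0.47 in ahp4 shoots and by 0.17 to 0.36 in Col. LHY differed by 0.10 to 0.37 in ahp4 and by -0.13 to 0.35 in Col. TOC1 differed by -0.44 to -0.38 in ahp4 and by -0.92 to -0.08 in Col. The labels state no pairing by number, and a fit with a replicate block is given at the end.

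Whether the BA change differed between organs was tested directly. No clock gene was called, in ahp4 (8.76% of all genes) or in Col (11.6%), with 0 and 1 of 10 at an unadjusted p under 0.05. The differences, roots minus shoots, were 0.94 ± 0.70 in ahp4 and 0.73 ± 0.64 in Col for CCA1, and 0.40 ± 0.24 in ahp4 and 0.40 ± 0.22 in Col for ELF3. PRR7 differed by 0.33 ± 0.26 in ahp4 and 0.54 ± 0.24 in Col (limma adjusted p = 0.150 in Col). Passing the test in roots and not in shoots therefore does not show that the organs responded differently.

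Of 22 further clock components tested in roots, 5 rose in ahp4 and 6 in Col, and none fell. Of all genes, 20.7% were called in ahp4 (11.4% higher, 9.26% lower) and 20.5% in Col (11.8% higher, 8.75% lower). In either direction the shares called lay near those of all genes. The shares that rose lay above those of all genes called higher, which was not tested. The genes that rose included RVE6, a MYB activator of the RVE8 group (0.59 ± 0.13 in ahp4, 0.67 ± 0.13 in Col). Another was the coactivator LNK1, with 0.96 ± 0.24 in both. The F-box photoreceptors ZTL (0.39 in ahp4, 0.40 in Col) and LKP2 (0.37 in ahp4, 0.34 in Col) rose as well, as did the WD-repeat protein LWD2 (0.41 in ahp4, 0.38 in Col), and LWD1 rose in Col (0.35 ± 0.11, limma adjusted p = 0.0310). LNK1, LKP2 and LWD2 overlap other genes and are uncertain. RVE6 averaged 11.7 ± 2.06 FPKM in ahp4 BA roots and 7.47 ± 1.47 FPKM in ahp4 mock roots (SD, n = 4 each). Without the library with conflicting labels 4 rose in ahp4, LKP2 being no longer called (0.33 ± 0.12, limma adjusted p = 0.0624). Of 21 such components tested in shoots, none was called in either genotype, where 3.92% of all genes in ahp4 and 8.15% in Col were.

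Among 13 clock output genes tested in roots, the same 4 rose in both genotypes and none fell. Of all genes, 20.7% were called in ahp4 (11.4% higher, 9.26% lower) and 20.5% in Col (11.8% higher, 8.75% lower). CDF1, a repressor of flowering genes, rose by 0.69 ± 0.19 in ahp4 and 1.15 ± 0.19 in Col, and its relative CDF2 by 0.69 ± 0.20 in ahp4 and 0.60 ± 0.20 in Col. The MYB-like genes RVE7 (1.05 ± 0.15 in ahp4, 0.93 ± 0.15 in Col) and RVE2 (0.56 ± 0.13 in ahp4, 0.75 ± 0.13 in Col) rose too. RVE7 averaged 20.9 ± 3.16 FPKM in ahp4 BA roots and 9.62 ± 1.91 FPKM in ahp4 mock roots (SD, n = 4 each). Without the library with conflicting labels these 4 were still called in ahp4 and CAT3, a catalase, was called lower (-0.64 ± 0.21, limma adjusted p = 0.0419), and CDF2 in Col, whose fit shares the spread, had an adjusted p of 0.0530. None of 15 output genes was called in shoots, where 3.92% of all genes in ahp4 and 8.15% in Col were. The median change of the tested output genes was 0.01 in ahp4 roots and 0.27 in Col roots.

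Of 9 light input genes, 1 was called in roots and 1 in shoots, in each genotype, beside 20.7% (ahp4) and 20.5% (Col) of all genes in roots and 3.92% (ahp4) and 8.15% (Col) in shoots. The blue-light receptor CRY2 rose in roots, by 0.30 in ahp4 (limma adjusted p = 0.0289) and 0.36 in Col (0.0115). Without the library with conflicting labels CRY2 was not called in ahp4 roots (0.25 ± 0.10, limma adjusted p = 0.0960). The phytochrome-interacting factor PIF3 fell in shoots, by 0.66 in ahp4 (-0.66, 0.00298) and 0.50 in Col (-0.50, 0.00444). PIF3 averaged 23.9 ± 2.41 FPKM in ahp4 BA shoots and 38.3 ± 2.45 FPKM in ahp4 mock shoots (SD, n = 3 each). For CRY2 the difference between organs itself was called, 0.69 ± 0.16 in ahp4 (0.00544) and 0.61 ± 0.14 in Col (0.00655), and for LNK1 it was called in ahp4 (1.23 ± 0.37, 0.0354).

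Markers of both organs moved with BA in roots too. Of all genes tested in roots, 20.7% were called in ahp4 (11.4% higher, 9.26% lower) and 20.5% in Col (11.8% higher, 8.75% lower). Of 8 shoot markers tested, LHCB2.1 and HEMA1 rose in both genotypes. Without the library with conflicting labels, 1 shoot marker was called higher in ahp4 roots. Summed shoot markers stood at 161 to 286 FPKM in ahp4 BA roots, 95.0 to 324 in ahp4 mock roots, 130 to 398 in Col BA roots and 76.7 to 397 in Col mock roots. Of 10 root markers, THAS and MRN1 rose and SKOR, PHO1, NRT2.1 and PIN2 fell in both genotypes. The summed root markers stood at 503 to 793 FPKM in ahp4 BA roots, 472 to 765 in ahp4 mock roots, 543 to 720 in Col BA roots and 452 to 561 in Col mock roots. In shoots GLK1, a shoot marker, fell by 0.32 in Col (-0.32, limma adjusted p = 0.0441), where 8.15% of all genes were called. The part of these markers in the changes of the clock genes was not tested.

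The ahp4 mutation left no called difference in any clock gene. In BA roots 0 of 10 were called (0.0257% of all genes), in mock roots 0 of 10 (0.0875%), in BA shoots 0 of 10 (0.00548%) and in mock shoots 0 of 10 (0.00548%), by limma, and 0 had an unadjusted p under 0.05. Differences of ahp4 minus Col ran from -0.13 to 0.31 in BA roots and from -0.07 to 0.22 in mock roots. In shoots they ran from -0.33 to 0.27 with BA and from -0.17 to 0.17 with mock. The intervals differ in width by gene: in mock roots the 95% limits were -0.15 to 0.24 for ELF3 and -0.68 to 0.81 for CCA1, and in mock shoots -1.59 to 1.24 for LHY and -1.48 to 1.58 for PRR5 (log2). Differences within these limits were thus not excluded with this spread between libraries.

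A difference in the BA change between genotypes was called for no clock gene, with 0 genes called among all 19418 tested in roots and 0 among 18246 in shoots (0% each), and with 0 clock genes at an unadjusted p under 0.05. In roots the ahp4 minus Col difference of the BA change was 0.01 ± 0.13 for ELF3, with 95% limits of -0.27 and 0.28. For CCA1 it was 0.21 ± 0.50, from -0.85 to 1.26, and for LUX 0.07 ± 0.33, from -0.62 to 0.76. CCA1 and LUX passed the test in ahp4 and not in Col, and no difference between genotypes was shown.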

How the data were processed

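The authors deposited 1 table of FPKM values for the 30 libraries, 33199 features, with build TAIR10, per the submitters' processing notes. Aligner, counter and strand use: not given in the sources used here. FPKM steps gave whole reads for 100% of features with a value (tolerance 0.01 reads); the scale followed size factors, not totals, and no 2 libraries looked like repeats of 1. Tests used limma 3.58.1 in R 4.3.3 with a mean-variance trend on log2(FPKM + 1), for genes with 1 FPKM or more in 3 libraries of the fit, adjusted over all genes tested. Fits held the 4 groups of an organ, or all 8 groups between organs, taken as independent though roots and shoots may share seedlings. A fold is on this scale, which understates change of low genes. The members and lists were chosen with earlier results of these data known. Named were all 10 members, called genes of each list (up to 6, by adjusted p) and the 5 highest and 5 lowest r with the index. All 84 list genes were found, 79 under their symbol in the TAIR10.1 annotation, which gave overlaps and promoters. The test was checked on simulated data for the BA change in Col roots, with libraries drawn independently. That check held no shared effect of the replicate number, which the clock genes show. Python 3.11.15, numpy 2.4.6, pandas 2.3.3 and matplotlib 3.10.9 were used.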

Additional observations from a re-analysis of the deposited data

Results flagged for a closer look

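In 66 sets of 4 libraries, each 1 measure in 1 group, a library far from the others of its group was sought and 4 were found, where chance gives about 1 in 20. PRR7 in Col shoot BA replicate 1 stood at 39.9 FPKM, with the nearest library at 63.0. TOC1 in Col root BA replicate 4 stood at 35.5 FPKM, with the nearest at 23.9. TOC1 in Col root mock replicate 1 stood at 19.8 FPKM, with the nearest at 24.1. ELF4 in Col shoot mock replicate 4 stood at 2.38 FPKM, on few reads, with the nearest at 1.14.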

How the results depend on the processing

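Across the alternatives for single clock genes, 2393 values kept the direction and the side of the threshold, 40 newly passed it, 25 no longer did and 1 reversed. That one was GI between organs in Col mock, -0.03 as reported and 0.55 (limma adjusted p = 0.0319) with FPKM scaled to a common sum. Counts of clock genes called in ahp4 mock between organs were 3 as reported, 6 with a common sum, 5 with quantile normalization and 5 without the replicate 1 libraries, an alternative chosen after seeing the data, as was leaving out the library with conflicting labels. Quantile normalization called 2 for BA in Col roots, adding CCA1 (0.0480). Leaving out 1 library at a time gave 3 to 6 between organs in ahp4 BA, 3 to 5 in ahp4 mock, 5 to 6 in Col BA and 4 to 5 in Col mock, 1 to 3 for BA in ahp4 roots, 1 to 2 in Col roots, and 0 to 1 for the organ difference of the BA change in Col. These counts moved by over 1.5 times without replicate 1 of ahp4 shoot BA (3), without replicate 2 of ahp4 root mock or replicate 1 or 3 of ahp4 shoot mock (5 each), without replicate 3 of ahp4 root BA (1), without replicate 1 or 4 of Col root BA or of Col root mock (2 each, adding CCA1 or LUX) and without replicate 4 of Col shoot BA (1, TOC1). The causes were not tested, and the shares of all genes called under these alternatives are not given here. The other comparisons gave 0 with each library left out.

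The replicate numbers were checked for pairing. Over all genes the deviations of same-numbered libraries correlated above 0.1 in 13 of 43 pairs (-0.14 to 0.38, median 0.03) and in no pair of groups throughout. On that ground the reported fits took the numbers as names. Over the 10 clock genes 33 of 43 pairs were above 0.1 (median 0.77), so same-numbered libraries did share deviations in these genes. The reported fits leave that shared part in the spread between libraries. With a replicate block, 7 clock genes were called between organs in ahp4 mock. For BA, 5 were called in ahp4 roots (PRR9 and PRR5 added), 5 in Col roots (CCA1, LUX, PRR9 and PRR5 added) and 1 in Col shoots (TOC1). For the organ difference of the BA change, 1 was called in each genotype (LUX in ahp4, TOC1 in Col). The share of all genes called with this block is not given here. These counts therefore do not show whether clock genes stand apart from genes in general. Spread between libraries, not read depth, limits most of these values; ELF4 in shoots rests on few reads.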
